A study of Mus musculus with 6 samples.

Results

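The integrated stress response regulators described here are 10 genes chosen by symbol, Atf4, Atf5, Ddit3, Trib3, Chac1, Ppp1r15a, Ddit4, Cebpb, Nupr1 and Slc3a2, out of 32544 genes in the deposited table. All 10 have a row in the table, and all 10 reached 1 CPM (counts scaled to the same total in every library) in at least 3 of 6 libraries, so each was among the 14311 genes tested. Polyadenylated RNA was sequenced from S2 and S3 proximal tubule segments, the later stretches of the proximal tubule, of C57Bl/6 mice that the series calls control mice. The AA group (3 libraries) came from mice 24 h after an injection of 3 mg/kg aristolochic acid I, a plant nephrotoxin whose reduced form binds to DNA, and the DMSO group (3 libraries) from mice 24 h after the solvent dimethyl sulfoxide. The labels used here give no age or sex. Tubules were dissected under a stereomicroscope and several were pooled per kidney, and nothing in the labels ties the 3 libraries of either group to different mice, so that p-values reflect the spread among these libraries alone, which may be technical.

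Cells start the integrated stress response when kinases that sense missing amino acids, unfolded protein in the endoplasmic reticulum, viral RNA or mitochondrial damage phosphorylate the initiation factor eIF2alpha. General translation then falls, while the mRNA of the transcription factor ATF4 is translated better through its upstream reading frames, and ATF4 turns on genes for amino acid supply, feedback and, under prolonged stress, cell death. ATF4 and ATF5 protein depend on translation as well as on mRNA, and only mRNA was measured here.

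Members of the pathway are known to be read by ATF4 through the C/EBP-ATF composite element, so this element and 2 other stress elements were searched for in the RefSeq promoter windows of the members (GRCm38.p6, the patch release of mm10), from 250 bases before to 50 bases after each listed start. The letters searched, on both strands, were TGATGNAA for the composite element and TGACGTCA for the cAMP response element, to which ATF factors bind, and the ER stress element of the ATF6 and XBP1 arm was searched by its consensus. The 10 members had 11 windows, and 3 members, Chac1, Nupr1 and Trib3, held the composite element, while it was found in 3.97% of all 32851 windows. Ppp1r15a held the cAMP response element, found in 1.79% of all windows. These 4 windows are shown, 5′ to 3′ on the gene's strand, because they are the ones with a match; capitals mark the match.
Chac1 (chr2:119350992-119351291, plus strand): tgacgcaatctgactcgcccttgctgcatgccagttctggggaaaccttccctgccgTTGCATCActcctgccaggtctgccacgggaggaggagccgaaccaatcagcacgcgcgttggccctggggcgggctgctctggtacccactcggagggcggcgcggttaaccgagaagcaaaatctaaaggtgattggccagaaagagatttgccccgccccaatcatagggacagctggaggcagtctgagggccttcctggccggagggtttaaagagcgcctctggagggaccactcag
Nupr1 (chr7:126625421-126625720, minus strand): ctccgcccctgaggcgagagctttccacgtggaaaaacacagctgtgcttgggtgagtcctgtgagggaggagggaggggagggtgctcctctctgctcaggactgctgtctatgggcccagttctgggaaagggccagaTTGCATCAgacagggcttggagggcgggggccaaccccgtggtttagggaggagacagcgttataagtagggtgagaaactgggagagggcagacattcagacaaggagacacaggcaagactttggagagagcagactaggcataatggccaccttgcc
Trib3 (chr2:152344011-152344310, minus strand): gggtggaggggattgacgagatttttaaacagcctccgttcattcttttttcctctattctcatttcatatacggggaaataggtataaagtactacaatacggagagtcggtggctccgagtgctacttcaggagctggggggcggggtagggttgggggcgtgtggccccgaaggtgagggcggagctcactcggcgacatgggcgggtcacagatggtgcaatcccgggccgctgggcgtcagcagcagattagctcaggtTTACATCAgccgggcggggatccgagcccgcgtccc
Ppp1r15a (chr7:45526219-45526518, minus strand): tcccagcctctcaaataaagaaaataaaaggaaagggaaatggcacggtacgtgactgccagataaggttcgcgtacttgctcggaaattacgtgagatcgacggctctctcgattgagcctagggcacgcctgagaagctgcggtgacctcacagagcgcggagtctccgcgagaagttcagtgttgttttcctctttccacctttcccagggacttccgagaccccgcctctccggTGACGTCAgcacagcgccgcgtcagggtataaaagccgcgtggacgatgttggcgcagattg
The match in Chac1 begins 193 bases before the start and that in Nupr1 110 bases before it, both as TTGCATCA, the composite element read on the other strand. In Trib3 it begins 15 bases after the start as TTACATCA, and the palindrome in Ppp1r15a begins 12 bases before the start. A match describes letters only, and the other 7 windows held none of these elements, among them the ER stress element, found in 0.119% of all windows.

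The libraries held 13304877 to 17815915 reads in AA and 15958557 to 31136251 reads in DMSO, so 1 read stood for 0.0321 to 0.0752 CPM. In limma's moderated test on log2(CPM + 1), with p-values adjusted over all tested genes by Benjamini-Hochberg, 30.9% of genes passed at an adjusted p of 0.05, 22.3% higher and 8.66% lower in AA. Over all tested genes the log2 fold change had a median of 0.21, and of -0.05 with library medians equalised, which turned the share of higher calls to 39.9%, against 72.0% as deposited. DMSO replicates 1 and 2 stood apart from DMSO replicate 3 and all AA libraries by over 2 on the log2 scale for 40 genes, 38 of them pseudogenes or predicted genes and 0 of them members. The 10 markers of the proximal tubule summed to 29084 to 41013 CPM in AA and 32166 to 47052 CPM in DMSO, of which Kap alone held 19912 to 33079 CPM in AA and 19223 to 30410 CPM in DMSO. Of these markers 1 was higher and 2 were lower, the genes of the endocytic receptors megalin (Lrp2, 2323 to 3440 CPM in AA and 6251 to 8476 CPM in DMSO, log2 fold change -1.44) and cubilin (Cubn, 737 to 811 CPM in AA and 1551 to 1920 CPM in DMSO, log2 fold change -1.11). Collecting duct markers summed to 56.7 to 106 CPM in AA and 19.7 to 37.9 CPM in DMSO, and thin limb markers to 121 to 344 CPM in AA and 51.4 to 62.9 CPM in DMSO. Fibroblast and pericyte markers summed to 100.3 to 114 CPM in AA and 55.7 to 75.5 CPM in DMSO, with 2 of 5 higher. Leukocyte markers summed to 164 to 220 CPM in AA and 180 to 270 CPM in DMSO, with 2 of 7 higher, among them the macrophage gene Cd68, named after its values were seen (20.1 to 38.4 CPM in AA and 0.376 to 1.25 CPM in DMSO). None of the markers was at 0 in all libraries. In such bulk samples, fewer cells of a type and less RNA per cell cannot be told apart, and the part of these cells in the results below was not tested.

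Members at several levels of the response rose in AA tubules. They were the transcription factor genes Atf4 and Ddit3, the chromatin protein gene Nupr1, the phosphatase subunit gene Ppp1r15a and the transporter subunit gene Slc3a2. These were 2.31 to 4.45 times as high in AA as in DMSO by mean CPM. The test placed 5 of the 10 members higher and 0 lower, and 5 did not pass, where 22.3% of tested genes were higher and 8.66% lower. At an unadjusted p of 0.05 the limma counts were 7 higher and 1 lower, where 30.9% and 12.2% of tested genes were. The voom method of limma on the recovered reads also called 5 higher and 0 lower (22.3% and 8.21% of tested genes), as did the test with library medians equalised (11.2% and 16.9%). With a term that sets DMSO replicates 1 and 2 apart from the other libraries, here called the library-set term, Atf5 was lower and 5 members were higher, Ddit4 among them and Nupr1 not (2.96% of tested genes were lower and 7.39% higher). That fit sets the AA libraries against DMSO replicate 3 alone, so its error comes from the other libraries and holds no spread around that library. Groups did not overlap for 5 members with higher AA values and 1 with lower AA values, where 46.4% of tested genes had no overlap, 33.4% with higher and 13% with lower AA values. The median log2 fold change of the members was 1.31, beside 0.21 for all tested genes. Because the members were chosen with earlier results of these data known, these counts describe them and test nothing about them as a group.

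**Figure D1:**
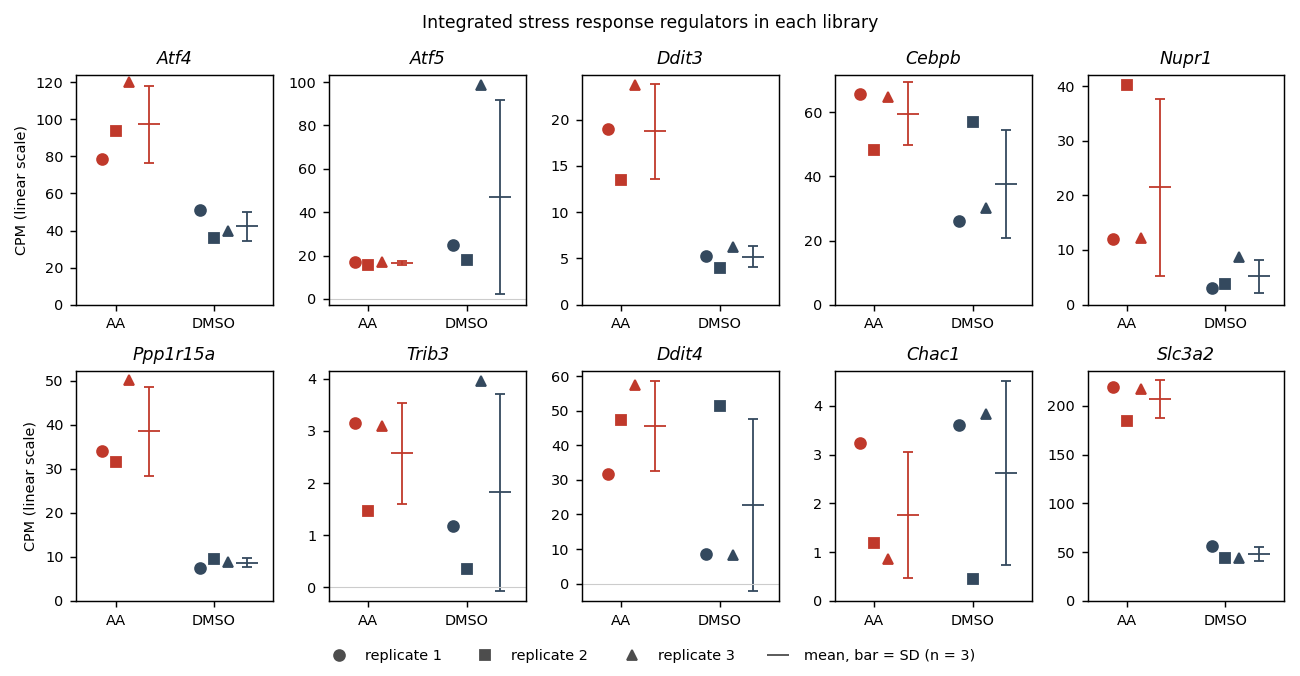
CPM of each member in the 3 AA libraries (red, left) and the 3 DMSO libraries (dark, right), on linear axes that differ by panel; symbols mark the replicate number and the bar beside them the mean and SD. Atf4, Ddit3, Nupr1, Ppp1r15a and Slc3a2 lie higher in every AA library than in any DMSO library, while DMSO replicate 3 stands far above the rest for Atf5 (98.6 CPM) and DMSO replicate 2 above the other DMSO libraries for Ddit4 (51.3 CPM).

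Among the transcription factors, Atf4, the central factor of the response, had 78.8, 93.7 and 120 CPM in AA replicates 1, 2 and 3, against 51.0, 36.0 and 39.6 CPM in DMSO replicates 1, 2 and 3. Every AA library was above every DMSO library, and AA replicate 3 was the highest. The means were 97.5 ± 20.8 CPM in AA and 42.2 ± 7.83 CPM in DMSO (SD, n = 3 each). The log2 fold change was 1.18, with an SE of 0.18 and a limma adjusted p of 0.00114.

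Ddit3 encodes CHOP, a factor that ATF4 induces and that promotes cell death under lasting stress. It had 18.9, 13.5 and 23.8 CPM in AA replicates 1 to 3, against 5.27, 3.98 and 6.27 CPM in DMSO replicates 1 to 3. The lowest AA library was above the highest DMSO library, and the log2 fold change was 1.66, with an SE of 0.25 and a limma adjusted p of 0.00101. On the other strand Ddit3 overlaps Mars, the methionyl-tRNA synthetase gene, which lay at 44.9 to 68.0 CPM over the 6 libraries. The labels do not state whether the counting used strand, and without it reads of stretches shared by both genes cannot be told apart.

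Nupr1, a small stress-induced chromatin protein first named p8, had 12.03, 40.2 and 12.2 CPM in AA replicates 1 to 3, against 3.01, 3.79 and 8.65 CPM in DMSO replicates 1 to 3. AA replicate 2 was 3.35 times as high as the lowest AA library, and DMSO replicate 3 came closest to the AA group. Nupr1 had a log2 fold change of 1.75 and passed (SE 0.45, limma adjusted p = 0.0136). It was 0.99 under the library-set term (adjusted p = 0.255), 1.499 without DMSO replicate 1 (adjusted p = 0.0502) and 1.20 without AA replicate 2 (adjusted p = 0.0463). AA replicate 2 also held the highest sum of thick ascending limb markers (1320 CPM, the other AA libraries 343 and 698 CPM). Its sums of thin limb markers (344 CPM, the others 121 and 130 CPM) and collecting duct markers (106 CPM, the others 56.7 and 82.6 CPM) were highest too. Those 2 sums rested largely on Akr1b3 (86.4, 313 and 107 CPM in AA replicates 1 to 3) and Aqp2 (25.8, 66.5 and 38.0 CPM), named after their values were seen. Slc14a2, Bst1, Cldn4, Aqp3, Scnn1g and Slc4a1 were not highest in AA replicate 2, while Sptssb, Fxyd4, Hsd11b2 and Atp6v1g3 were. The part of these markers in the Nupr1 value was not tested.

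Cebpb, a bZIP factor that pairs with ATF4, had 65.6, 48.3 and 64.9 CPM in AA replicates 1 to 3, against 25.9, 57.1 and 30.2 CPM in DMSO replicates 1 to 3. DMSO replicate 2 lay above AA replicate 2, so the groups overlapped. Its log2 fold change of 0.72 (SE 0.26) did not pass (limma adjusted p = 0.0544), and without DMSO replicate 2 it was 1.05 (adjusted p = 0.00406). Cebpb shares 320 bases with transcripts of Tmem189 on the other strand, which read at 219, 166 and 189 CPM in AA replicates 1 to 3 and at 313, 474 and 386 CPM in DMSO replicates 1 to 3. Tmem189 fell by 1.02 on the log2 scale (SE 0.17, limma adjusted p = 0.00178), and it too was highest in DMSO replicate 2. Without a stated strand setting, reads of the shared stretch cannot be told apart, and the level of Cebpb is uncertain to that extent.

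Atf5, a close relative of Atf4 that is translated in the same way and guards mitochondrial protein quality, was the member with the largest mean difference downward. It had 17.1, 15.4 and 16.9 CPM in AA replicates 1 to 3, against 24.7, 17.8 and 98.6 CPM in DMSO replicates 1 to 3. The AA libraries lay within 1.11-fold of each other and below every DMSO library, while the DMSO libraries spanned 5.55-fold, and only 0.755% of tested genes had a wider DMSO range on the log2 scale. The log2 fold change was -1.06 (SE 0.47, 95% interval -2.09 to -0.03, limma adjusted p = 0.108) and did not pass. The value rests on DMSO replicate 3: without it the log2 fold change was -0.33 (adjusted p = 0.289), and against it alone, with the library-set term, -2.51. Without DMSO replicate 2 it was -1.53 (adjusted p = 0.0316). Nup62, a nucleoporin gene that overlaps Atf5 on the other strand, had 18.1, 23.3 and 19.5 CPM in AA replicates 1 to 3 and 12.3, 10.2 and 11.1 CPM in DMSO replicates 1 to 3. It was higher in AA (log2 fold change 0.80, limma adjusted p = 0.00934) and not high in DMSO replicate 3, and reads of any stretch it shares with Atf5 cannot be told apart.

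Of the feedback regulators, Ppp1r15a encodes GADD34, the stress-induced subunit that brings protein phosphatase 1 to eIF2alpha and ends the response. It had 34.05, 31.4 and 50.05 CPM in AA replicates 1 to 3, against 7.53, 9.60 and 8.84 CPM in DMSO replicates 1 to 3. The groups lay far apart beside their spread, with 38.5 ± 10.1 CPM in AA and 8.66 ± 1.05 CPM in DMSO (SD, n = 3 each). The log2 fold change was 2.01, with an SE of 0.21 and a limma adjusted p of 0.000104. Its constitutive counterpart Ppp1r15b stood at 174 ± 19.8 CPM in AA and 175 ± 13.3 CPM in DMSO, and its log2 fold change was -0.01 (SE 0.14, 95% interval -0.31 to 0.29, limma adjusted p = 0.969).

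Trib3, a pseudokinase that ATF4 and CHOP induce and that restrains both ATF4 and AKT, was read at low levels. It had 3.16, 1.46 and 3.09 CPM in AA replicates 1 to 3 (42, 26 and 43 reads), against 1.17, 0.353 and 3.95 CPM in DMSO replicates 1 to 3 (28, 11 and 63 reads). DMSO replicate 3 was the highest of all libraries, and the DMSO libraries spanned 11.2-fold. The exact binomial 95% interval was 3.03 to 5.05 CPM in DMSO replicate 3 and 0.176 to 0.632 CPM in DMSO replicate 2, so the spread within DMSO exceeded counting error, which is all that such intervals cover. The log2 fold change of 0.51 (SE 0.43, 95% interval -0.45 to 1.46) did not pass (limma adjusted p = 0.397). It was 1.02 without DMSO replicate 3 (adjusted p = 0.0531) and -0.51 against that library (adjusted p = 0.505 with the library-set term).

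Ddit4 encodes REDD1, an inhibitor of the growth kinase complex mTORC1 that hypoxia, glucocorticoids, p53 and ATF4 are known to induce. It had 31.6, 47.4 and 57.4 CPM in AA replicates 1 to 3, against 8.66, 51.3 and 8.27 CPM in DMSO replicates 1 to 3. DMSO replicate 2 lay among the AA libraries, 6.20 times as high as the lowest DMSO library, and only 0.699% of tested genes had a wider DMSO range on the log2 scale. The log2 fold change of 1.43 (SE 0.54, 95% interval 0.26 to 2.61) did not pass (limma adjusted p = 0.0630), and without DMSO replicate 2 it was 2.25 (adjusted p = 0.000453). With predicted genes and pseudogenes removed it was 1.45 (adjusted p = 0.0338), and the like fit gave 0.73 for Cebpb (adjusted p = 0.0318).

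**Figure D2:**
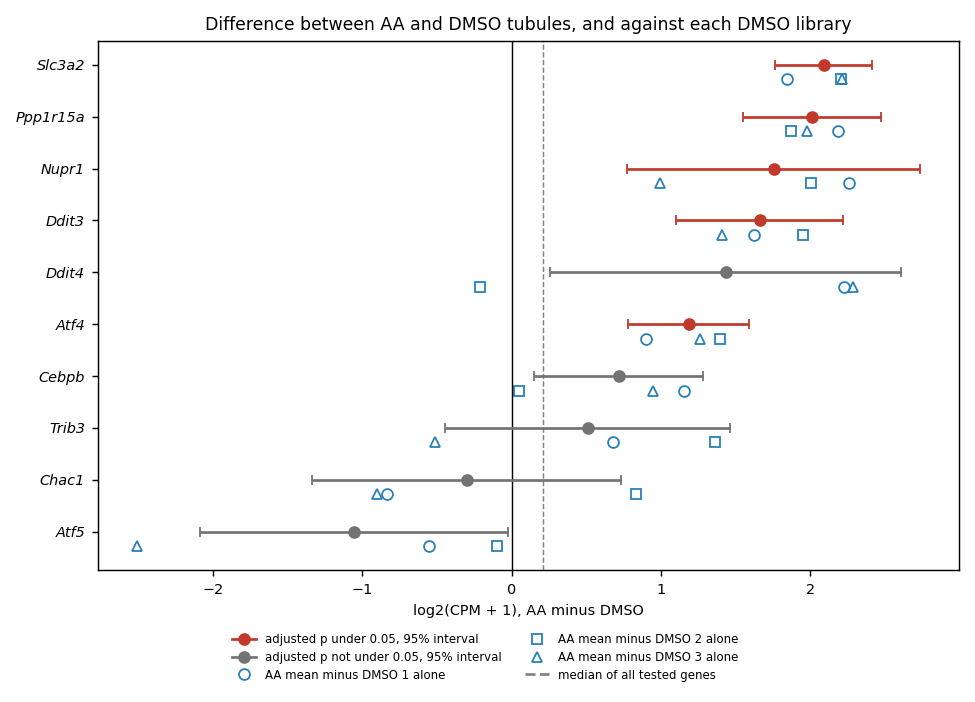
Log2 difference of AA minus DMSO for each member with its unadjusted 95% interval (filled, red where the adjusted p is under 0.05), and the AA mean minus each single DMSO library (open blue symbols); the dashed line is the median of all tested genes, 0.21. The open symbols lie close together for Slc3a2 (1.84 to 2.21) and Ppp1r15a (1.87 to 2.18) and far apart for Ddit4 (-0.21 to 2.28) and Atf5 (-2.51 to -0.10).

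The members with metabolic roles parted. Slc3a2 encodes 4F2hc (CD98), the heavy chain that carries amino acid exchangers to the basolateral membrane. It had 219, 184 and 217 CPM in AA replicates 1 to 3, against 56.7, 43.8 and 43.7 CPM in DMSO replicates 1 to 3. The libraries of each group lay within 1.30-fold of each other. The log2 fold change was 2.09 (SE 0.15, limma adjusted p = 8.70e-06), the most precise among the members and, on log2(CPM + 1), the largest. By mean CPM Ppp1r15a rose more, 4.45-fold against 4.30-fold for Slc3a2. Chac1 encodes an enzyme that breaks down glutathione and is induced by ATF4 and CHOP. It had 3.23, 1.18 and 0.862 CPM in AA replicates 1 to 3 (43, 21 and 12 reads), against 3.60, 0.4496 and 3.82 CPM in DMSO replicates 1 to 3 (86, 14 and 61 reads). Both groups held high and low libraries, DMSO replicate 2 being the lowest of all. Its log2 fold change of -0.30 (SE 0.47, 95% interval -1.34 to 0.73) did not pass (limma adjusted p = 0.657).

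Set beside the windows printed above, the members with a composite element did not move alike: Nupr1 rose, while Trib3 and Chac1 had log2 fold changes of 0.51 and -0.30 that did not pass. Atf4, Ddit3 and Slc3a2, whose windows held none of the letters searched, rose, as did Ppp1r15a with its cAMP response element. The windows cover the listed starts only, and elements elsewhere were not searched for. Those of Slc3a2 (chr19:8713848-8714147) and Nupr1 lie inside the gene, away from its 5′ end in GENCODE M21 (8723369 and 126630861).

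Within the DMSO group the members varied in different libraries. Atf5, Ddit3, Trib3, Chac1 and Nupr1 were highest in DMSO replicate 3, and Ddit4, Cebpb and Ppp1r15a in DMSO replicate 2, while Atf4 and Slc3a2 were highest in DMSO replicate 1. DMSO replicate 2 was also the lowest DMSO library for Trib3, Chac1, Ddit3, Atf4 and Atf5. Over all tested genes the highest DMSO library was replicate 3 for 33.3%, replicate 2 for 45.9% and replicate 1 for 20.7%. The log2 range over the 3 DMSO libraries was 2.496 for Ddit4, 2.41 for Atf5, 1.87 for Trib3 and 1.73 for Chac1, beside a median of 0.44 for all tested genes. In the AA group the widest ranges were 1.66 for Nupr1 and 1.18 for Chac1, beside a median of 0.38.

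**Figure D3:**
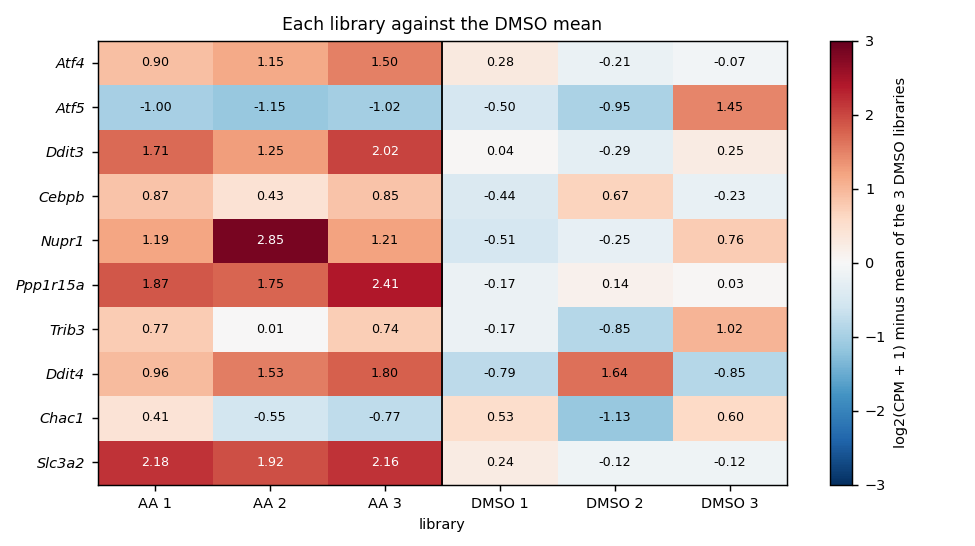
Each library's log2(CPM + 1) minus the mean of the 3 DMSO libraries, for the 10 members (rows) in AA and DMSO libraries (columns); red is above and blue below the DMSO mean. Slc3a2 lies 1.92 to 2.18 above it in the AA libraries, whereas Ddit4 in DMSO replicate 2 (1.64) and Atf5 in DMSO replicate 3 (1.45) lie far above the other DMSO libraries.

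As levels per kilobase of annotated exon (CPM per kb of the union of GENCODE M21 exons), the most abundant member in AA was Slc3a2 at 58.6 ± 5.58, followed by Atf4 at 41.4 ± 8.84, Cebpb at 39.6 ± 6.53 and Ddit4 at 25.9 ± 7.41 (SD, n = 3 each). Atf4 and Cebpb did not differ beyond their spread in AA. In DMSO, Cebpb at 25.1 ± 11.2, Atf5 at 23.6 ± 22.5, Atf4 at 17.9 ± 3.32, Slc3a2 at 13.6 ± 2.11 and Ddit4 at 13.0 ± 14.1 led, with overlapping spreads. Trib3 and Chac1 were the lowest in both groups, at 1.21 ± 0.452 and 1.07 ± 0.786 in AA and 0.858 ± 0.887 and 1.603 ± 1.15 in DMSO.

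In mm10, per GENCODE M21, Atf4 lies at chr15:80255184-80257541 (plus strand), Ddit3 at chr10:127290774-127296288 (plus) and Slc3a2 at chr19:8706882-8723369 (minus). Ppp1r15a lies at chr7:45522916-45526268 (minus), Nupr1 at chr7:126623249-126630861 (minus) and Atf5 at chr7:44812256-44816658 (minus). Chac1 at chr2:119351229-119354381 (plus), Trib3 at chr2:152337422-152344032 (minus) and Cebpb at chr2:167688915-167690418 (plus) share a chromosome, and Ddit4 lies at chr10:59949669-59951834 (minus). All 10 are annotated as protein-coding.

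Counts in the lists below stand beside 22.3% higher and 8.66% lower among all tested genes in limma as deposited. With library medians equalised these shares were 11.2% and 16.9%, and at an unadjusted p of 0.05 they were 30.9% and 12.2%. Upstream of the members, none of the 4 eIF2alpha kinase genes passed in limma as deposited, and the calls of 2 of them changed with the scaling. Eif2ak3 (PERK, the sensor of the endoplasmic reticulum) had 54.7 CPM in AA and 44.9 CPM in DMSO by mean, a log2 fold change of 0.27 (limma adjusted p = 0.159), and Eif2ak4 (GCN2, the sensor of amino acid lack) had one of 0.07 (adjusted p = 0.789). Eif2ak1 (HRI, which senses haem and mitochondrial stress) and Eif2ak2 (PKR, the sensor of double-stranded RNA) had log2 fold changes of -0.34 (adjusted p = 0.0976) and -0.40 (adjusted p = 0.111). Of 11 tested genes of kinases and their regulators, 2 were higher and 0 were lower, with 3 lower at an unadjusted p of 0.05 and 0 lower in voom. The higher genes were Impact, an inhibitor of GCN2 (log2 fold change 0.98, adjusted p = 0.00228), and Abcf1 (0.48, adjusted p = 0.0389). With library medians equalised 1 was higher and 3 were lower, among them Eif2ak1 (-0.60, adjusted p = 0.0120) and Eif2ak2 (-0.66, adjusted p = 0.0147).

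Of 15 tested genes of eIF2, its exchange factor eIF2B and the eIF2alpha phosphatase, 5 were higher and 0 were lower, also in voom and, for lower genes, at an unadjusted p of 0.05. Among them were the eIF2 subunit genes Eif2s3x (log2 fold change 0.67, limma adjusted p = 0.0065) and Eif2s2 (0.65, adjusted p = 0.0274) and the eIF2B subunit genes Eif2b5 (0.52) and Eif2b2 (0.59). Eif2s1, which encodes eIF2alpha itself, had 47.7 ± 7.63 CPM in AA and 33.7 ± 5.52 CPM in DMSO, a log2 fold change of 0.49 (adjusted p = 0.0532). With library medians equalised 0 of the 15 were higher and the list median was 0.12, against 0.38 as deposited, so these calls depend on the scaling. With the library-set term, which sets AA against DMSO replicate 3 alone, the list median was 0.37, but the higher calls above were not kept.

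Several other factors of the ATF and C/EBP families and relatives of the members rose. Of 13 tested, 6 were higher and 1 was lower, with a median log2 fold change of 0.38. Atf3 was tested only because its AA libraries reached 1 CPM, which none of its DMSO libraries did, and of the other 12 genes 5 were higher and 1 was lower. Leaving out single libraries gave 4 to 6 higher genes and 0 to 1 lower; without any one AA library Atf3 was not tested. Atf3, a repressor that ATF4 induces, had 9.85, 17.6 and 38.3 CPM in AA replicates 1 to 3. In DMSO replicates 1 to 3 it had 0.460, 0.385 and 0.439 CPM, a log2 fold change of 3.81 (SE 0.39). Ddit4l, the relative of Ddit4 known as REDD2, had 34.3, 63.0 and 48.3 CPM in AA replicates 1 to 3, against 3.31, 3.08 and 4.32 CPM in DMSO replicates 1 to 3, a log2 fold change of 3.40 (SE 0.24). Trib1, a relative of Trib3, was also higher (2.16, limma adjusted p = 0.000566), as was the bZIP repressor Nfil3 (1.69), while Trib2, named after its values were seen, was lower (-0.40, adjusted p = 0.0377). Cebpg, the usual partner of ATF4, had a log2 fold change of 0.38 that did not pass (adjusted p = 0.0829).

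Genes for amino acid synthesis that ATF4 is known to induce were not among the higher ones in limma as deposited. Of 12 tested, 0 were higher and 3 were lower in limma and in voom, and with library medians equalised 0 were higher and 5 lower. At an unadjusted p of 0.05, 4 were lower and 1 was higher, Psat1 (0.74), named after its values were seen. Without AA replicate 3, and with predicted genes and pseudogenes removed, 1 was higher and 3 were lower. The lower genes were Phgdh, the first enzyme of serine synthesis (9.08 ± 3.502 CPM in AA and 25.4 ± 10.9 CPM in DMSO, log2 fold change -1.38), and the folate enzymes Aldh1l2 (-1.32) and Shmt2 (-0.74). Asns, the asparagine synthetase and a classical ATF4 target, had 10.97, 12.7 and 14.5 CPM in AA replicates 1 to 3, against 24.4, 12.5 and 30.5 CPM in DMSO replicates 1 to 3. DMSO replicate 2 lay among the AA libraries, and the log2 fold change of Asns, -0.69, did not pass (limma adjusted p = 0.0859); with library medians equalised it was -0.95 (adjusted p = 0.0343). Of 9 amino acid transporter genes, 2 were higher and 3 were lower, where 22.3% and 8.66% of all tested genes were. Slc38a2 (1.06) and Slc7a5 (0.98) were higher. Slc1a4 (-0.68), the cystine exchanger gene Slc7a11 (-0.79) and, named after its values were seen, Slc3a1 (-0.49) were lower. With the library-set term 0 of the 9 were higher and 1 was lower.

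The partners of 4F2hc divided. Of 5 tested light chain genes, 2 were higher and 2 were lower, beside the 4.30-fold higher mean of Slc3a2. Slc7a6 was tested only through its AA libraries, none of its DMSO libraries reaching 1 CPM, and of the other 4 genes 1 was higher and 2 were lower. Leaving out single libraries gave 0 to 2 higher genes and 0 to 1 lower, and without any one AA library Slc7a6 was not tested. Slc7a6 had 3.498 ± 2.02 CPM in AA and 0.514 ± 0.236 CPM in DMSO (SD, n = 3 each), and Slc7a5 had 3.12 ± 0.870 CPM in AA and 1.09 ± 0.419 CPM in DMSO, both low levels. Slc7a7, the basolateral y+LAT1 chain of the proximal tubule, was lower, with 24.5 ± 4.46 CPM in AA and 40.3 ± 12.2 CPM in DMSO (log2 fold change -0.67, limma adjusted p = 0.0441). With the library-set term 0 of the 5 passed.

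Aminoacyl-tRNA synthetase genes and the tRNA exporter gene Xpot had a median log2 fold change of 0.31, and of 13 tested, 4 were higher and 0 were lower (0 lower also at an unadjusted p of 0.05 and in voom). Tars (0.73), Cars (0.59), Aars (0.42) and Xpot (0.39) were higher. Equalised medians left 1 higher gene and a list median of 0.05, the library-set term left 0 higher genes, and voom called 3. In the DMSO group 12 of the 13 were highest in replicate 3, where 33.3% of all tested genes were. Of the members, Atf5, Ddit3, Trib3, Chac1 and Nupr1 were highest there too. Atf4 and Slc3a2 were highest in DMSO replicate 1, and the remaining members in DMSO replicate 2.

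Of 19 tested genes listed as signalling and other ATF4 targets, 9 were higher and 3 were lower, with a median log2 fold change of 0.52. Of all tested genes, 22.3% were higher and 8.66% lower. The list includes the constitutive Ppp1r15b and, named after their values were seen, the initiation factor genes Eif1 and Eif5, of which Eif5 was higher (0.72). The higher genes with the smallest adjusted p were the stress cytokine gene Gdf15 (125.8 ± 14.9 CPM in AA and 6.07 ± 2.49 CPM in DMSO, log2 fold change 4.22), the BH3-only genes Pmaip1 (3.09) and Bbc3 (2.96) and the death receptor gene Tnfrsf10b (2.15). These genes are also known p53 targets. Lower genes, named after their values were seen, were Herpud1 (-0.88), Vldlr (-0.56) and Vegfa (-0.60). With library medians equalised 5 of the 19 were higher and 3 lower, and under the library-set term 6 were higher and 0 lower. Of 7 tested mTORC1 inhibitors beside Ddit4, Sesn2 (1.36) and Sesn3 (0.56) were higher, and 0 were lower in limma and in voom, with 2 lower at an unadjusted p of 0.05; with library medians equalised 1 was higher and 3 were lower.

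The ATF6 and XBP1 arm of the unfolded protein response, which raises chaperones of the endoplasmic reticulum, leaned the other way. Of 20 tested genes, 2 were higher and 5 were lower, where 22.3% and 8.66% of all tested genes were. The median log2 fold change was -0.29, beside 0.21 for all tested genes. Atf6 had 49.3 ± 4.33 CPM in AA and 82.0 ± 6.37 CPM in DMSO (log2 fold change -0.72), and the co-chaperone gene Dnajb11 (-0.68) and the degradation gene Sel1l (-0.57) were lower too. Xbp1 (0.59) and the co-chaperone gene Dnajb9 (1.25) were higher. Hspa5, the main chaperone BiP, had 521 ± 90.1 CPM in AA and 665 ± 37.3 CPM in DMSO, a log2 fold change of -0.36 that did not pass (limma adjusted p = 0.105); with library medians equalised it was -0.62 (adjusted p = 0.0184). With library medians equalised 1 of the 20 was higher and 13 were lower, where 11.2% and 16.9% of all tested genes were. With the library-set term, which sets AA against DMSO replicate 3 alone, the list median was -0.37, but the lower calls above were not kept. Of 9 genes of mitochondrial stress, 0 were higher and 0 were lower in limma and in voom, with 2 higher at an unadjusted p of 0.05.

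**Figure D4:**
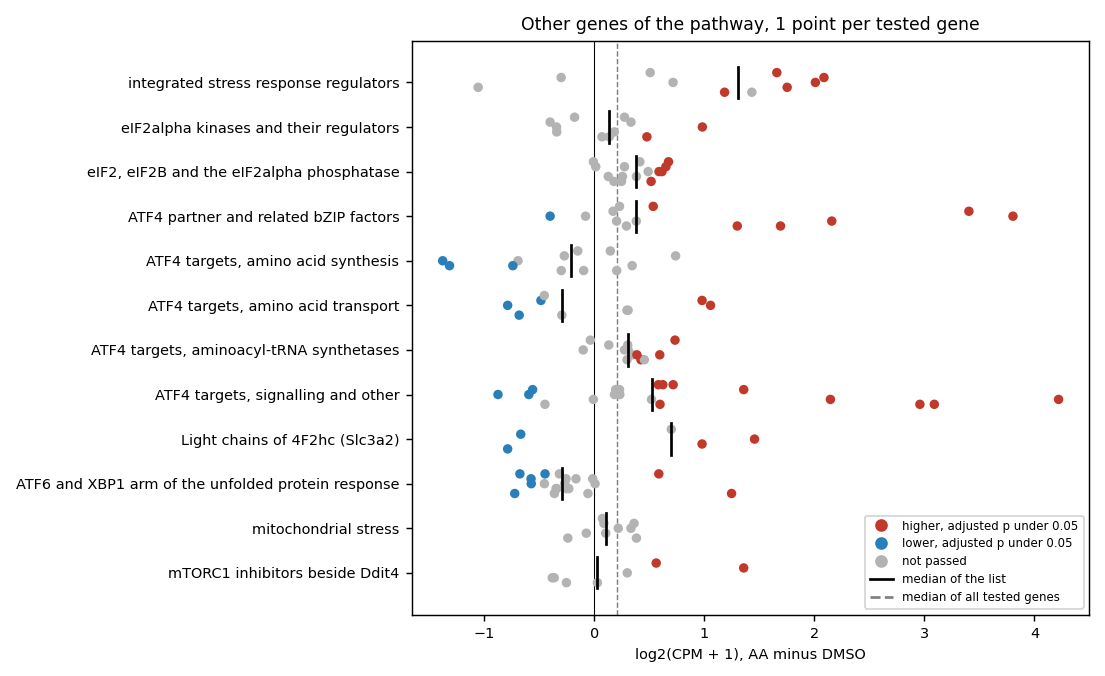
Log2 difference of AA minus DMSO for every tested gene of the 10 members (top row) and of the other lists of the pathway; points are genes, coloured where the adjusted p is under 0.05, short bars are list medians and the dashed line is the median of all tested genes. Members have a median of 1.31, amino acid synthesis one of -0.21 and the ATF6 and XBP1 arm one of -0.29.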

How the data were processed

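The authors deposited 1 table of log10 values for 32544 genes and 6 libraries; from the values these are log10(CPM + 1), since all columns add up to the same CPM total once the logarithm is undone. Per the submitters' processing notes, bcl2fastq 2.19 and kallisto were used with build mm10; the annotation, the strand setting and how transcripts were joined to genes were not found in the labels. The labels' protocols name the PicoPure kit for RNA and the TruSeq Stranded mRNA kit for the libraries. Values were turned back to CPM and logged as log2(CPM + 1), which understates the change of low genes. Whole reads were recovered for 100% of values within 0.1 read, and their sums gave the depths of 13304877 to 31136251 reads.

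A gene was tested if 3 or more libraries reached 1 CPM (14311 genes), with limma 3.58.1 (moderated test, variance trend) in R 4.3.3, two-sided, adjusted by Benjamini-Hochberg over all tested genes; the procedure was tested on simulated data. Mean ± SD are of CPM over 3 libraries and SE is the moderated error of the log2 fold change. Alternatives were other scalings (TMM factors in an own implementation), filters, pseudocounts and tests, voom on recovered reads, a replicate block, a term for DMSO replicates 1 and 2 against the other libraries, and leaving out each library; removal of predicted genes and pseudogenes was added after seeing the data. Members and lists were chosen with earlier results of these data known. All members were named, and up to 4 members per list by smallest adjusted p plus a fixed set of kinases, factors and markers. Near copies were sought among GENCODE M21 transcripts with blastn 2.17.0 (at least 90% identity over 200 bases); the only hit was Tmem189 for Cebpb. Promoter windows are from RefSeq (GRCm38.p6). Of the symbols, 27 had been turned into dates, none of them a member.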

Additional observations from a re-analysis of the deposited data

How the results depend on the processing

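Of the 10 members, 5 passed; Atf4, Ddit3, Ppp1r15a and Slc3a2 passed as higher under all 18 alternatives run for each, with log2 fold changes of 0.92 to 1.33, 1.20 to 1.87, 1.65 to 2.14 and 1.83 to 2.21. Nupr1 missed the threshold with no filter on low values (adjusted p = 0.0558), without DMSO replicate 1 (0.0502) and under the library-set term (0.255). Leaving out each library in turn gave 4 to 8 called members and 2484 to 3969 called genes, against 4426 with all libraries; the lowest count came without AA replicate 2, 2880 came without AA replicate 3, and the 8 members without DMSO replicate 2. These fits have fewer samples. The library-set term, which leaves the comparison resting on DMSO replicate 3, gave 1481 genes and reversed Trib3 to -0.51. Of 178 member values under alternatives, 166 kept their direction and their side of the threshold. A filter of 4 CPM left Trib3 and Chac1 untested.

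Same-numbered AA and DMSO libraries did not deviate together from their group means (r = -0.11, -0.16 and -0.02 for replicates 1, 2 and 3, across genes, which are not independent replicates), and no library correlated best with its own number. A fit with the replicate number as a block called 3813 genes and 6 members, Ddit4 being added (adjusted p = 0.0299). Trib3 and Chac1 had the fewest reads of the members, 11 to 63 and 12 to 86 per library.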
